A study of Xenopus tropicalis with 27 samples.

Results

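Brains of Xenopus tropicalis tadpoles raised in beta-estradiol were compared directly with brains of tadpoles raised in cyclopamine, with the solvent controls kept out of the test. The comparison rests on 6 of the 27 libraries in the series, 3 for each drug, chosen by their labelled treatment. Estradiol was given at 10 µM and cyclopamine at 5 µM, so the contrast is between these exposures and not between equal doses. Exposure ran from stage 30 onward, brains were taken at stage 46, and each library pooled 3 brains. DMSO-treated brains of the same stage, also in 3 libraries of 3 pooled brains, are used only to show on which side of the solvent each drug lay, and both drugs share them. The labels give no genotype for the treated animals. A time course of untreated wildtype brains, 3 libraries at each of 6 stages, shares no library with the drug comparison, and its stages 40 and 47 are used as a description. The study concerned genes linked to autism, with estrogen as one treatment of interest.

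Cyclopamine is a plant alkaloid that binds Smoothened, the membrane protein that passes on the Hedgehog signal. With Smoothened blocked, Gli transcription factors do not activate their targets, among them gli1 itself and proteins that dampen the pathway, such as ptch1 and hhip. In the vertebrate neural tube Hedgehog signals set ventral cell fates and support the division of progenitors. Estradiol is the main natural estrogen and acts through nuclear receptors that bind DNA. Lysosomes, which also enter the results, are acidic compartments that degrade proteins, sugars and lipids, and their enzymes are especially abundant in phagocytic cells.

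The drug and DMSO libraries held 17643953 to 28482659 counted reads each. The 6 drug libraries did not form tight groups. On the first principal component, with 46.9% of the variance, estradiol replicate 3 lay at -61.9 and the other estradiol libraries at -16.9 and -8.17, while cyclopamine replicates 2 and 3 lay at 39.5 and 47.5. Cyclopamine replicate 1 lay at 0.0013 on that axis and apart from all others on the second, at -51.3. The biological coefficient of variation was 0.226 within estradiol and 0.212 within cyclopamine, against 0.0898 within DMSO. Brain identity was clear in every library: the summed level of 8 neural markers, among them snap25, elavl3 and sox2, was 5286 to 6564 CPM (read counts scaled to a common total and normalized for library composition) with estradiol, 4679 to 5292 with cyclopamine and 6081 to 6396 with DMSO. No label says whether replicates came from separate clutches, so the p-values measure the spread between these libraries. In whole brains, fewer cells of a type and less RNA per cell cannot be told apart.

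Of 16199 genes tested, 142 were higher with estradiol and 147 were higher with cyclopamine. These are 0.877% and 0.907% of the genes, together 1.78%, and the counts of called list members below stand against these shares. A gene was called when its p-value, adjusted by Benjamini-Hochberg over all genes in edgeR's quasi-likelihood test, was under 0.05. All 289 had their 3 libraries of one drug above the 3 of the other, a pattern found in 15.3% of all genes with estradiol on top and in 9.35% with cyclopamine on top. The median difference of all genes was 0.01 on the log2 scale. Genes of cell division made up the largest named share of the estradiol side: 66 of the 142 were members of lists of DNA replication, nucleotide supply, mitosis, cell cycle control or DNA repair, and none of the 147 were. These are 6 lists with 153 measured genes, and 3 of the lists (E2F family, DNA repair, replication stress) were assembled after the values were seen, so that share is a description. On the cyclopamine side 20 of the 147, and none of the 142, belonged to 2 lists of the lysosome and autophagy with 60 measured genes. The autophagy list was assembled after the values were seen, so this share is a description as well.

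The number of calls depended on single libraries. Without estradiol replicate 1 2 genes were called, gli1 among them. Without cyclopamine replicates 1, 2 and 3 in turn, 16, 104 and 42 genes were called. Without estradiol replicate 2 the number was 296 and without estradiol replicate 3 it was 341. All 289 genes kept their direction in these 6 fits, which follows from their non-overlapping groups and is no further support. With the DMSO libraries added to the estimate of spread, 675 genes (4.16% of those tested) were higher with estradiol and 422 (2.6%) with cyclopamine.

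**Figure D1:**
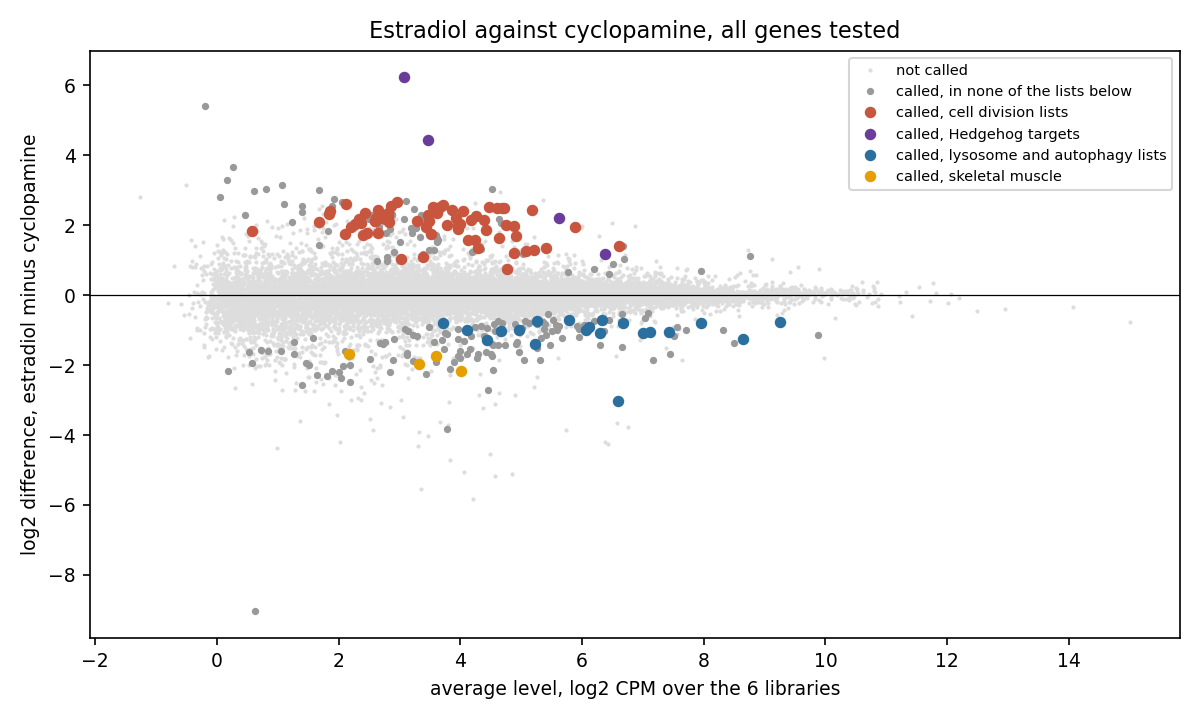
Each point is a gene, with its average level over the 6 libraries (log2 CPM) on the x axis and its log2 difference, estradiol minus cyclopamine, on the y axis; coloured points are called genes of the named lists. Hedgehog targets and cell division genes lie above 0 and lysosomal and muscle genes below it. The lowest point is gh1, whose fitted value is no measure of size because its estradiol libraries held 0 reads.

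Targets of the Hedgehog pathway separated the drugs. Of 5 measured targets, 4 were called higher with estradiol, against 0.877% of all genes. gli1, the transcription factor that is both an effector and a target of the pathway, stood at 13.3, 13.3 and 22.8 CPM in the estradiol libraries and at 0.158, 0.295 and 0.190 CPM in the cyclopamine libraries. The groups were far apart, and the DMSO libraries, at 14.6, 13.7 and 15.1 CPM, lay within the estradiol range. Behind these levels were 1107 reads with estradiol and 14 with cyclopamine. The difference was 75.1-fold (log2 6.23 ± 0.37, SE; edgeR adjusted p = 0.00232).

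hhip, a membrane protein that binds and sequesters Hedgehog ligands, was at 15.4, 19.2 and 28.3 CPM with estradiol and at 0.475, 1.28 and 1.14 CPM with cyclopamine, 21.6-fold apart (log2 4.44 ± 0.39, adjusted p = 0.0158). ptch1, the main Hedgehog receptor, was at 111, 99.8 and 136 CPM against 53.3, 49.7 and 47.4 CPM (log2 1.18 ± 0.14, adjusted p = 0.0211). In gli1, hhip and ptch1 estradiol replicate 3 was the highest library, the cyclopamine libraries lay below every DMSO library, and the groups did not overlap. gli1 was called in every fit that left out 1 library, hhip in all but the one without estradiol replicate 1, and ptch1 only in the fits without estradiol replicate 2, estradiol replicate 3 or cyclopamine replicate 2.

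A target that was not called was nkx2-2. nkx2-2, a homeodomain factor of the ventral neural tube, was at 19.8, 15.1 and 16.3 CPM with estradiol and at 13.1, 18 and 13 CPM with cyclopamine, so the groups overlapped (log2 0.19 ± 0.18, adjusted p = 0.671). Both drugs lay below the DMSO libraries, which were at 44.3, 47.7 and 50.6 CPM.

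None of 16 measured ligands and transducers of the pathway was called, with a median difference of 0.11 against 0.01 for all genes. The ligand gene shh was at 63.3, 50.9 and 75.8 CPM with estradiol and at 74.4, 62.1 and 44.8 CPM with cyclopamine (log2 0.04 ± 0.21, adjusted p = 0.946). smo, which encodes the protein that cyclopamine binds, was at 57.7, 64.8 and 103 CPM with estradiol and at 58.0, 44.1 and 44.7 CPM with cyclopamine (log2 0.59 ± 0.23, adjusted p = 0.235). The factors gli2 and gli3 had log2 differences of -0.46 ± 0.29 and 0.60 ± 0.19, with adjusted p = 0.472 and 0.169. scube2, which helps release Hedgehog ligands, was at -0.66 ± 0.25 (adjusted p = 0.224). A p above the threshold does not show that these genes were equal.

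**Figure D2:**
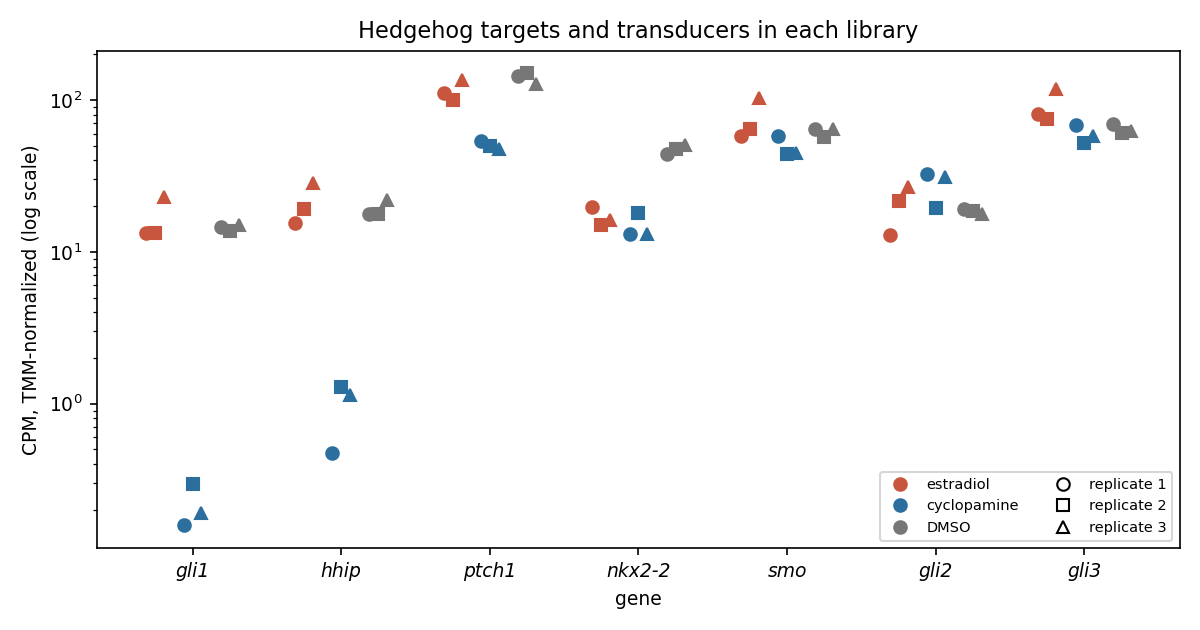
Levels of Hedgehog targets (gli1, hhip, ptch1, nkx2-2) and transducers (smo, gli2, gli3) in each of the 9 libraries, in CPM on a log axis; colours are groups and symbols replicates. For gli1, hhip and ptch1 the cyclopamine points lie below all others, at 0.158 to 53.3 CPM, while for nkx2-2 both drugs lie below DMSO.

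Several transcription factors of neural tube progenitors and of neurogenesis were higher with estradiol. dbx1, a homeodomain factor of progenitors at the middle of the dorsoventral axis, was at 47.7, 48.5 and 87.8 CPM with estradiol, 13, 11.8 and 7.83 CPM with cyclopamine, and 45.2, 41.8 and 49.2 CPM with DMSO. The estradiol libraries thus lay 5.56-fold above the cyclopamine libraries (log2 2.47 ± 0.30, adjusted p = 0.0211), and 2 of them lay within the DMSO range. Its relative dbx2 had 102 reads with estradiol and 2 with cyclopamine, a ratio of 49.3 with an exact 95% interval of 13.3 to 413 that covers counting error only. Of 22 measured progenitor domain factors, a list assembled after the values were seen, 3 were called, dbx1 and dbx2 among them, and the median difference was 0.14. The ventral and dorsal neighbours nkx6-1, pax6 and pax7 had log2 differences of 0.07, 0.04 and 0.05.

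Of 26 neurogenesis genes 2 were called, among them neurog1, a proneural factor that starts neuronal differentiation. It was at 9.39, 10.8 and 15.3 CPM with estradiol against 3.32, 5.17 and 3.75 CPM with cyclopamine (log2 1.52 ± 0.26, adjusted p = 0.0335). The groups did not overlap and every cyclopamine library lay below the DMSO libraries. The list's median was 0.22. As a mean of log2(CPM + 1), the list was at 5.63, 5.67 and 5.86 with estradiol and 5.34, 5.31 and 5.34 with cyclopamine. The DMSO libraries were at 6.02, 5.94 and 6.03, so the list's mean lay below the solvent with both drugs. Of its members 15 had all estradiol libraries above all cyclopamine libraries, against 15.3% of all genes, and 1 had the reverse. With DMSO libraries in the fit 9 members were called, all higher with estradiol. The genes neurod1, elavl3 and dcx, which mark cells further along, had log2 differences of 0.08, 0.29 and 0.16 and were not called.

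Among 24 neural progenitor genes sox3 (log2 1.02 ± 0.18) and the chromatin protein hmga2 (1.40 ± 0.26) were higher with estradiol. sox2, a factor of most neural progenitors, was at 243, 216 and 305 CPM with estradiol and 229, 201 and 208 CPM with cyclopamine (log2 0.24 ± 0.15, adjusted p = 0.464). The groups overlapped for sox2.

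Members of the hes5 cluster, repressors that keep progenitors undifferentiated and respond to Notch, split. hes5.3, hes5.4 and hes5.5 were higher with estradiol, by 1.59 ± 0.31, 1.94 ± 0.30 and 1.25 ± 0.17, and so was the related helt (2.19 ± 0.35). hes5.1 and hes5.2 had differences of 0.06 ± 0.19 and -0.07 ± 0.21 and were not called. These are 4 of 13 measured members of a list assembled after the values were seen. How reads shared between near-identical copies were counted is not given in the sources used here, so values of single copies, such as the hes5 genes, mcm6.2, rrm2.2, dck.1, arsa.1 and cyp3a4.3, are uncertain. None of these 4 calls was made without estradiol replicate 1 or without any one cyclopamine library, 1 was made without estradiol replicate 2 and all 4 without estradiol replicate 3. None of the 17 genes of the Notch pathway list was called.

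Secreted signals were also among the calls. The Wnt antagonist sfrp1 was at 10.2, 11.3 and 22.9 CPM with estradiol and 1.23, 2.46 and 3.13 CPM with cyclopamine (log2 2.69 ± 0.43, adjusted p = 0.0292). wnt1, a ligand of the dorsal midline and the midbrain-hindbrain boundary, had a difference of 1.3 ± 0.25. They were the 2 called members of 29 in the Wnt list, whose median was 0.25. ntn3, a netrin (2.06 ± 0.29), and fst, an activin antagonist (1.19 ± 0.18), were named after their values were seen and were higher with estradiol as well. Of the ventral brain factors 1 of 16 was called, nkx2-8, which was below the DMSO libraries with both drugs and lowest with cyclopamine, at 0.119 to 0.427 CPM against 1.17 to 2.23 CPM with estradiol.

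These patterning and neurogenesis calls were tied to few libraries. Of dbx1, dbx2, neurog1, wnt1, sfrp1, sox3 and hmga2 none was called without estradiol replicate 1 or cyclopamine replicate 1. dbx1 and dbx2 were called without cyclopamine replicate 2 and dbx1 without cyclopamine replicate 3. nkx2-8 was called in none of the 6 fits that left out 1 library, nor with limma-voom or without the robust option of edgeR.

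Genes of DNA replication were higher with estradiol. Of 38 measured genes 13 were called, all on the estradiol side, against 0.877% of all genes, and 36 had all estradiol libraries above all cyclopamine libraries, against 15.3% of all genes. The median difference was 1.21. cdc6, which loads the replicative helicase at origins, was at 17.5, 15.2 and 33.9 CPM with estradiol and 4.35, 3.40 and 3.23 CPM with cyclopamine. DMSO libraries lay between the groups at 8.60, 8.11 and 11.1 CPM. The difference was 5.95-fold (log2 2.57 ± 0.33, adjusted p = 0.0217).

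Helicase subunits followed the same order. mcm5 was at 33.8, 30.5 and 69.2 CPM with estradiol and 9.02, 7.33 and 6.88 CPM with cyclopamine (log2 2.5 ± 0.33, adjusted p = 0.0217), and mcm4 (2.51), mcm6.2 (2.42), mcm10 (2.08) and cdc45 (2.32) were also called. So were the origin protein orc1, the GINS subunit gins4, the polymerase subunit pole, the ligase lig1 and the histone chaperones chaf1a and chaf1b. pcna, the sliding clamp, did not pass: it was at 86.5, 57.4 and 156 CPM against 24.9, 28.1 and 24.6 CPM (log2 1.93 ± 0.35, adjusted p = 0.0503). orc6, at -0.41, was the only member with a difference below 0.

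Enzymes that supply nucleotides for DNA were called higher with estradiol in 5 of 16 cases, against 0.877% of all genes, with a median of 0.88. rrm2.2, a small subunit of ribonucleotide reductase, was at 30.7, 30.6 and 61.2 CPM with estradiol, 7.91, 5.86 and 7.73 CPM with cyclopamine and 15.6, 15.2 and 22 CPM with DMSO. Every estradiol library lay above every DMSO library, and every cyclopamine library below (log2 2.49 ± 0.31, adjusted p = 0.0216). tyms, which makes thymidylate (2.54 ± 0.37), tk1, which salvages thymidine (2.42 ± 0.35), rrm1 (1.96 ± 0.31) and dck.1 (1.59) made up the rest. The purine synthesis enzymes gart, atic and paics.2, had differences of 1.0, 0.77 and -0.09 and were not called. Members of this list were called in 7, 5 and 1 cases without estradiol replicate 2, estradiol replicate 3 and cyclopamine replicate 2, and in none without estradiol replicate 1, cyclopamine replicate 1 or cyclopamine replicate 3.

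Mitotic genes were higher with estradiol as well. Of 38 measured genes 19 were called, all higher with estradiol, against 0.877% of all genes. All 38 had non-overlapping groups in that direction, against 15.3% of all genes, and the median was 1.96. aurkb, the kinase of the chromosomal passenger complex, was at 17.8, 17 and 39.6 CPM with estradiol and 4.83, 4.82 and 6.12 CPM with cyclopamine (log2 2.22 ± 0.35, adjusted p = 0.028). Its partners incenp, birc5l and cdca8 had differences of 2.0, 1.94 and 2.22 and were called too.

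Kinetochore and spindle genes were called across several complexes. cenpe, a kinetochore motor, was at 23.1, 19.2 and 45.1 CPM against 6.88, 6.59 and 6.03 CPM (log2 2.14 ± 0.32), the checkpoint kinase bub1b at 13.8, 12.8 and 27.3 CPM against 4.55, 4.04 and 3.61 CPM (2.12 ± 0.32), and the motor kif20b at 35.5, 26.6 and 59.1 CPM against 9.06, 8.96 and 8.54 CPM (2.17 ± 0.29). Estradiol replicate 3 was the highest library in each. mki67, widely used as a mark of dividing cells, was at 128, 97.4 and 195 CPM with estradiol, 48.1, 56.3 and 52.7 CPM with cyclopamine and 94.4, 91.8 and 96.3 CPM with DMSO (log2 1.40 ± 0.24, adjusted p = 0.0335). cdk1, the main mitotic kinase, had a difference of 1.92 ± 0.37 and an adjusted p = 0.0503.

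Of 22 measured G1 regulators and p53 response genes 2 were called, cdk2 (2.12 ± 0.37) and e2f3 (2.30 ± 0.33), both higher with estradiol, with a median of 0.51. In lists assembled after the values were seen, 11 of 21 E2F family and cyclin genes, 11 of 28 repair and checkpoint genes and 8 of 13 replication stress and cohesion genes were called, all on the estradiol side, with medians of 1.78, 1.12 and 1.96. foxm1, which activates mitotic genes, was at 8.66, 9.19 and 22 CPM with estradiol and 1.98, 1.28 and 2.85 CPM with cyclopamine (log2 2.68 ± 0.45). The repressors e2f7 and e2f8 were called in the same direction (2.61 ± 0.42 and 2.13 ± 0.30). The E2F list shares 5 genes with the G1 list. cdca7, a chromatin factor that works with the remodeller hells, was 8.19-fold higher (3.03 ± 0.48). The cell cycle inhibitor cdkn1a was at 6.27, 5.62 and 6.48 CPM against 6.17, 6.05 and 6.88 CPM (log2 -0.08 ± 0.18), with overlapping groups.

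The cell division calls needed most of the libraries. No member of the replication, mitosis, E2F, repair or replication stress list was called without estradiol replicate 1 or without any one of the cyclopamine libraries. Without estradiol replicate 2, 22 replication and 21 mitosis genes were called, and without estradiol replicate 3 the counts were 18 and 32. With DMSO libraries in the fit the counts were 30 and 38.

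**Figure D3:**
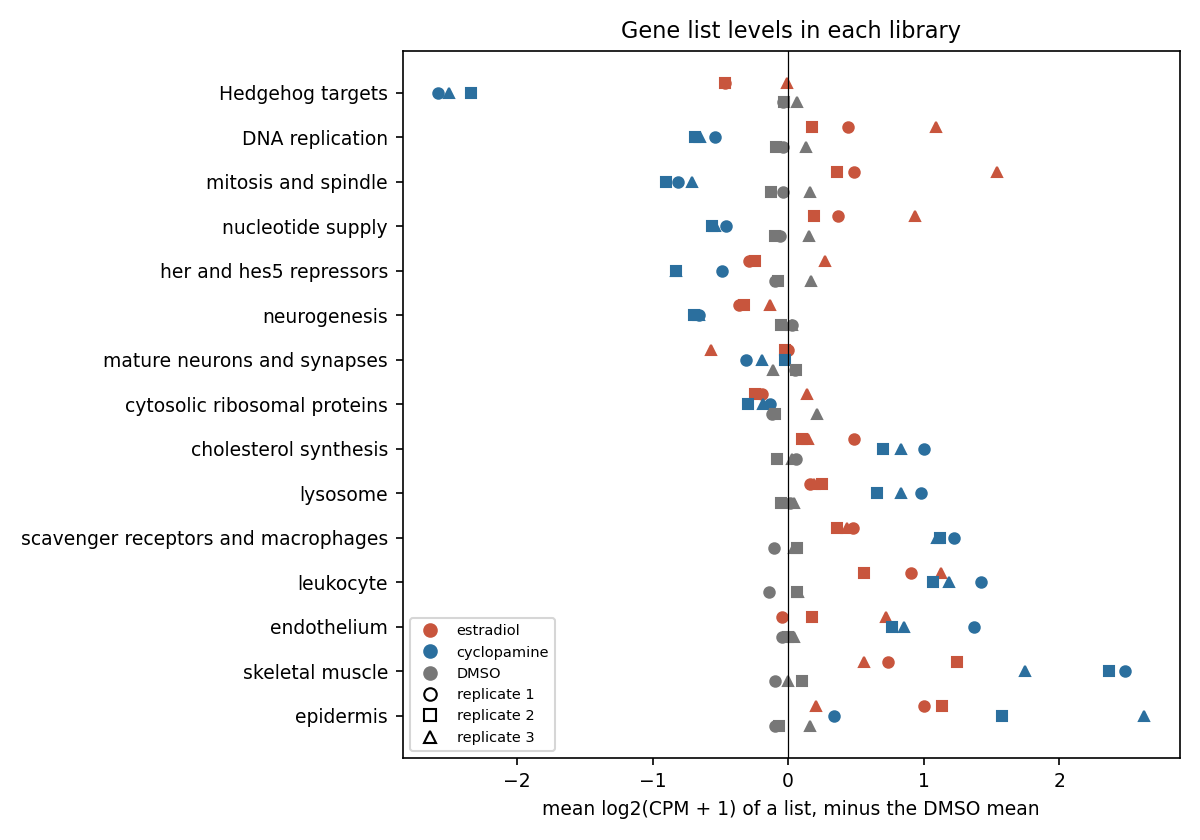
Mean level of gene lists in each of the 9 libraries, as mean log2(CPM + 1) over the members minus the mean of the DMSO libraries; colours are groups and symbols replicates. Replication, mitosis and nucleotide lists lie below 0 in every cyclopamine library and above 0 in every estradiol library, while lysosomal and muscle lists lie above 0 with both drugs and highest with cyclopamine.

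Differentiated neurons did not separate the drugs by this test. None of 32 genes of mature neurons and synapses, 16 of GABA and glycine signalling, 18 of glutamate signalling or 20 telencephalic and interneuron factors was called, with medians of -0.01, 0.09, -0.07 and -0.17. snap25, a protein of synaptic vesicle release, was at 812, 713 and 463 CPM with estradiol and 566, 789 and 593 CPM with cyclopamine. The groups overlapped, and estradiol replicate 3 was the lowest library. None of the 10 autism risk genes on the list, 49 cytosolic ribosomal proteins or 34 respiratory chain subunits was called. The respiratory chain list had a median of 0.14, and 18 of its members had all estradiol libraries above all cyclopamine libraries, a pattern of 15.3% of all genes.

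Lysosomal genes were higher with cyclopamine. Of 36 measured genes 13 were called, all on the cyclopamine side, against 0.907% of all genes, and 26 had all cyclopamine libraries above all estradiol libraries, against 9.35% of all genes. The median difference was -0.72. hexb, a subunit of the β-hexosaminidase that degrades gangliosides, was at 18.2, 22.7 and 20.9 CPM with estradiol, 59.0, 43.6 and 56.3 CPM with cyclopamine and 17.2, 16.7 and 18.4 CPM with DMSO. Cyclopamine libraries lay 2.61-fold above the estradiol libraries (log2 -1.39 ± 0.15, adjusted p = 0.0186), and estradiol replicate 1 lay within the DMSO range.

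Some of the called genes act in sphingolipid breakdown. asah1, acid ceramidase, was at 44.6, 45.7 and 43.7 CPM with estradiol and 98.5, 80.0 and 84.0 CPM with cyclopamine (log2 -0.99 ± 0.11, adjusted p = 0.0186). psap, whose product is cut into the saposins that present lipids to these enzymes, was at 502, 442 and 414 CPM against 809, 754 and 694 CPM (-0.76 ± 0.12), and the activator gm2a differed by -0.99 ± 0.16. arsa.1, an arylsulfatase of sulfatide breakdown that was not on the list but is among the lowest p-values, was at 16.5, 17.6 and 17.7 CPM against 77.9, 48.3 and 56.8 CPM (-1.85 ± 0.18, adjusted p = 0.0167). npc2, which hands cholesterol out of the lysosome, was called as well (-1.08 ± 0.14), while its membrane partner npc1 was at 21.0, 17 and 24.7 CPM against 22.2, 21.3 and 23.2 CPM, with overlapping groups.

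Some of the called genes encode proteases, and those outside the list were picked from the calls. ctsb, a cysteine cathepsin, was at 221, 237 and 251 CPM with estradiol and 658, 469 and 523 CPM with cyclopamine (log2 -1.24 ± 0.15, adjusted p = 0.0211). ctsv, another cysteine cathepsin, was at 191, 220 and 191 CPM against 599, 437 and 503 CPM (-1.38 ± 0.14), and ctsc, which activates other proteases, at 85.4, 79.1 and 81.0 CPM against 321, 181 and 279 CPM (-1.70 ± 0.20). The list member ctsa was called (-0.81 ± 0.14), and so were lgmn (-1.0 ± 0.13) and the aspartic protease napsa (-2.26 ± 0.24), which are outside it. Cyclopamine replicate 1 was the highest library for ctsb, ctsv and ctsc, and no estradiol library reached the lowest cyclopamine library.

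Others encode enzymes that trim sugars. naga, gusb and naglu of the list were called at -1.02, -1.0 and -0.78, and man2b1, a lysosomal mannosidase named after its values were seen, at -1.03. Membrane proteins of the compartment were called too: lamp1 was at 113, 115 and 106 CPM against 274, 192 and 221 CPM (log2 -1.07 ± 0.14), cd63 differed by -0.80, and the exporters ctns, for cystine, and slc17a5, for sialic acid, differed by -1.17 and -1.01. Of the V-ATPase subunits that acidify the lysosome, the 5 on the list had differences of -0.17 to -0.23 and were not called. A subunit outside the list, atp6v1g1, was called higher with cyclopamine and was named after its values were seen. Of the fits that left out 1 library, only the one without estradiol replicate 3 called atp6v1g1. The factors that switch on lysosomal genes, tfeb, tfe3 and mitf, had differences of 0.05, -0.57 and -0.25 and were not called.

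In a list of lysosomal nutrient sensing and autophagy, assembled after the values were seen, the median was -0.34. Of its 27 measured genes 7 were called, all higher with cyclopamine, against 0.907% of all genes. sqstm1, an autophagy receptor, was at 84.9, 86.4 and 73.3 CPM with estradiol and 206, 128 and 177 CPM with cyclopamine (log2 -1.09 ± 0.17, adjusted p = 0.0283). optn, a second receptor, differed by -1.29 ± 0.23. fnip1, fnip2 and rragc, which belong to the amino acid sensing machinery on the lysosome, differed by -0.90, -0.72 and -0.73. The list gave 0 calls without estradiol replicate 1, 2 and 5 without estradiol replicates 2 and 3, and 1, 2 and 1 when cyclopamine replicate 1, 2 or 3 was left out.

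gpnmb, a membrane glycoprotein of phagocytes and pigment cells, had the largest difference among the called members of the lysosomal and autophagy lists. It was at 14, 21.2 and 27.8 CPM with estradiol, 193, 206 and 108 CPM with cyclopamine and 14.1, 12.3 and 15.8 CPM with DMSO, 8.18-fold higher with cyclopamine (log2 -3.03 ± 0.33, adjusted p = 0.0211). The pigment cell markers that could bear on it, 9 measured genes, were not called, and their summed level was 32.1 to 66.7 CPM with estradiol and 49.8 to 136 CPM with cyclopamine. Their part in the gpnmb difference was not tested.

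Among the calls outside the lists, 3 enzymes that act on amino sugars were picked after the values were seen, with no list of such genes behind them. amdhd2, which removes the acetyl group from N-acetylglucosamine-6-phosphate, was at 5.11, 5.1 and 5.67 CPM with estradiol and 29.7, 16.7 and 21.1 CPM with cyclopamine (log2 -2.11 ± 0.23, adjusted p = 0.0186). gnpda1, which takes the next step, differed by -1.41 ± 0.20. renbp, which interconverts N-acetylglucosamine and N-acetylmannosamine, was at 16.9, 26.0 and 16.6 CPM against 66.1, 48.5 and 51.3 CPM (-1.50 ± 0.20). The groups did not overlap in any of these genes.

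Of the 13 calls on the lysosome list, none was made without estradiol replicate 1 or cyclopamine replicate 1, 2 without cyclopamine replicate 3, and 6, 11 and 10 members of the list were called without estradiol replicate 2, estradiol replicate 3 and cyclopamine replicate 2. Outside the list arsa.1, ctsv and amdhd2 were called in all of these fits except the one without estradiol replicate 1.

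**Figure D4:**
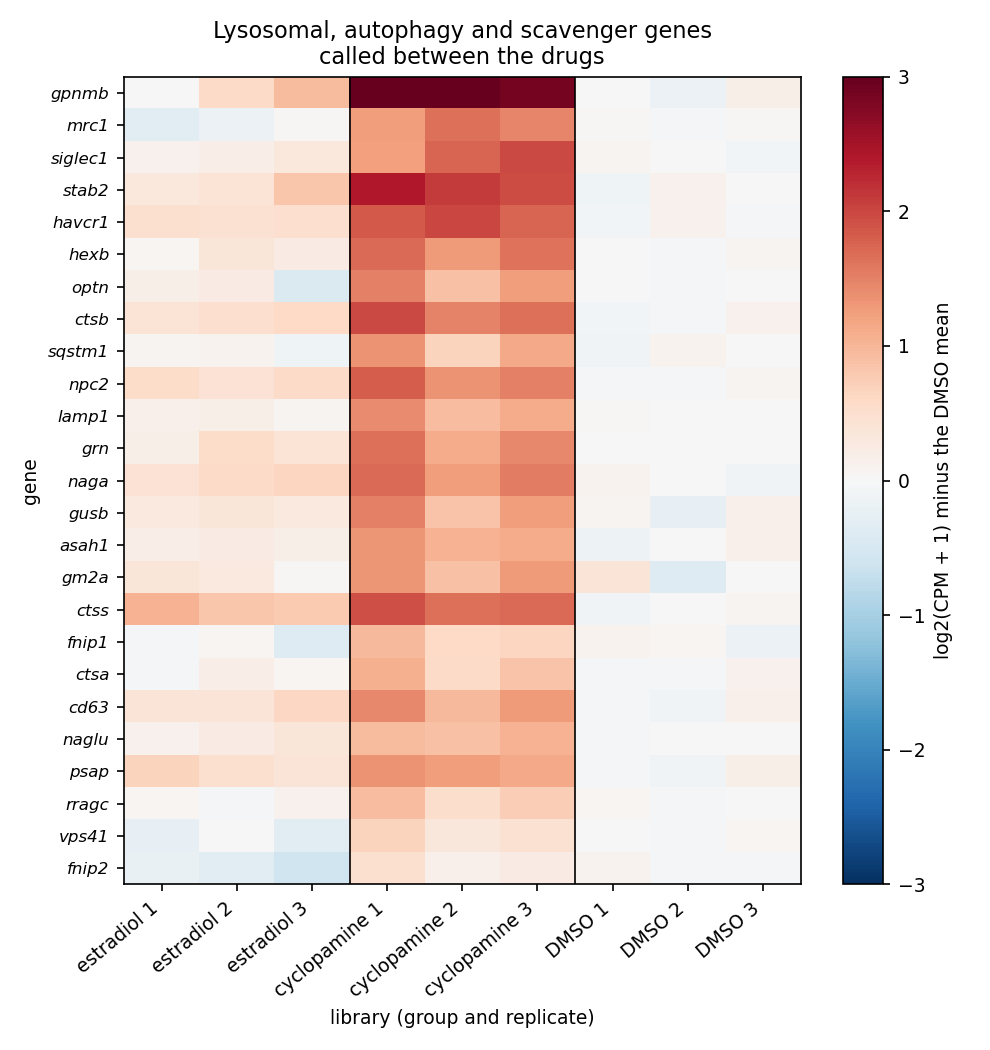
Level of the 25 called lysosomal, autophagy and scavenger genes in each of the 9 libraries, as log2(CPM + 1) minus the mean of the DMSO libraries, with genes ordered by the difference between the drugs. For every gene the 3 cyclopamine columns are redder than the estradiol columns, and some, among them ctsb, ctss, npc2, psap and naga, are also above DMSO in every estradiol library.

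In a list of scavenger receptors and macrophage genes, assembled after the values were seen, the median was -0.74. Of 21 genes named, 14 were measured. Those not found by symbol were stab1, marco, timd4, aif1, itgam, mpeg1 and cx3cr1, so the list covers macrophage genes only in part. Of its 14 measured genes 5 were called, all higher with cyclopamine, against 0.907% of all genes. They were stab2, mrc1, siglec1, havcr1 and the cathepsin ctss, which also stands in the leukocyte list; the lists share 3 genes. stab2, which takes up hyaluronan, was at 8.95, 9.64 and 13.1 CPM with estradiol and 41.2, 33.0 and 30.0 CPM with cyclopamine (log2 -1.74 ± 0.20, adjusted p = 0.0205). The mannose receptor mrc1 was at 1.12, 1.36 and 1.72 CPM against 5.3, 7.38 and 6.36 CPM (-2.20 ± 0.26), and havcr1, a receptor for phosphatidylserine on dying cells, at 6.81, 6.67 and 6.84 CPM against 18.8, 21.4 and 17.6 CPM (-1.53 ± 0.14). The groups did not overlap in these genes. The list gave 0, 3 and 5 calls without estradiol replicates 1, 2 and 3, and 2, 3 and 2 when cyclopamine replicate 1, 2 or 3 was left out. Its summed level was 75.1 to 89.1 CPM with estradiol, 152 to 177 CPM with cyclopamine and 49.9 to 57.8 CPM with DMSO.

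Of 9 general leukocyte markers measured, only the cathepsin ctss was called (-0.94 ± 0.14). The list leaned toward cyclopamine, with a median of -0.42 and quartiles of -0.68 and -0.30. In 2 members all cyclopamine libraries lay above all estradiol libraries, against 9.35% of all genes. The 2 members given next lay nearer to no difference than the list's median. The myeloid factor spi1 was at 4.72, 4.16 and 6.74 CPM with estradiol and 7.28, 5.71 and 5.88 CPM with cyclopamine, and ptprc, on all leukocytes, at 7.83, 4.02 and 8.31 CPM against 8.31, 4.82 and 6.88 CPM, with overlapping groups and adjusted p = 0.598 and 0.989. The summed level of the leukocyte list was 66.5 to 105 CPM with estradiol, 103 to 135 CPM with cyclopamine and 37.7 to 46.5 CPM with DMSO, and no member was at 0 in any library. How far leukocyte content bears on the lysosomal differences was not tested.

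Markers of other tissues also moved. Of 9 measured skeletal muscle genes ckm, mylpf, tnnt3 and tnnc2 were called, all higher with cyclopamine, against 0.907% of all genes. The list's median was -1.80. ckm, muscle creatine kinase, was at 5.69, 8.31 and 3.44 CPM with estradiol, 33.7, 28.6 and 14.7 CPM with cyclopamine and 0.717, 2.06 and 1.40 CPM with DMSO (log2 -2.16 ± 0.38, adjusted p = 0.0361). The summed level of the list was 19.3 to 39.5 CPM with estradiol, 64.3 to 127 CPM with cyclopamine and 8.30 to 10.9 CPM with DMSO, so both drugs lay above the solvent. The list gave no call when estradiol replicate 1, cyclopamine replicate 1 or cyclopamine replicate 2 was left out, 4 and 1 calls without estradiol replicates 2 and 3, and 3 calls without cyclopamine replicate 3.

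Of 13 endothelial genes vwf, the clotting factor of vessel walls, was called: it was at 0.875, 1.22 and 1.22 CPM with estradiol and 3.92, 4.33 and 4.84 CPM with cyclopamine (log2 -2.0 ± 0.26). The endothelial list had a median of -0.69. In 5 of its members all cyclopamine libraries lay above all estradiol libraries, against 9.35% of all genes. With DMSO libraries in the fit 3 members were called. Summed endothelial levels were 224 to 382 CPM against 373 to 545 CPM, with 198 to 218 CPM in DMSO libraries, and 4 members were called without estradiol replicate 3. The vwf call was not made without estradiol replicate 1, cyclopamine replicate 1 or cyclopamine replicate 3. No epidermal, cartilage, pigment, red blood cell or retinal marker was called, of 8, 9, 9, 7 and 8 measured, with medians of -1.27, -1.50, -0.70, 0.93 and 0.69. Without cyclopamine replicate 3, 4 retinal markers were called on the estradiol side, and without estradiol replicate 2, 1 red blood cell marker was.

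Levels of an epidermal gene and of the cartilage list were uneven between the cyclopamine libraries. The epidermal factor elf3 was at 21.2 and 47.4 CPM in cyclopamine replicates 2 and 3 and at 0.304 to 3.11 CPM in the other drug libraries; it was picked after its values were seen. The cartilage list summed to 1665 CPM in cyclopamine replicate 3 against 169 to 561 CPM in the other drug libraries. No gene of either list was called. The keratin gene krt61, outside the epidermal list, was called in the other direction, higher with estradiol. It had 17, 81 and 48 reads with estradiol, 2, 5 and 3 with cyclopamine and 194, 282 and 306 with DMSO. Of the fits that left out 1 library, only the one without estradiol replicate 3 called krt61.

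Genes of cholesterol synthesis leaned toward cyclopamine. Of 18 measured genes 17 had all cyclopamine libraries above all estradiol libraries, against 9.35% of all genes, with a median of -0.62, and 2 were called. One was fdft1, which makes squalene, at 39.4, 32.9 and 31.7 CPM with estradiol, 58.1, 49 and 61.2 CPM with cyclopamine and 28.3, 28.9 and 23.9 CPM with DMSO (log2 -0.72 ± 0.13, adjusted p = 0.0416). All estradiol libraries lay between the other groups. The receptor ldlr did not pass, at -0.87 ± 0.19 (adjusted p = 0.0663). The list gave 1 call without estradiol replicate 3 or cyclopamine replicate 2 and none without any other single library, and with DMSO libraries in the fit it gave 7.

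Of 16 genes of xenobiotic metabolism, cyp3a4.3, a cytochrome P450 of drug breakdown, was called: it was at 13.7, 13.2 and 11.1 CPM with estradiol, 41.1, 22.9 and 33.4 CPM with cyclopamine and 6.04, 6.80 and 7.07 CPM with DMSO (log2 -1.39 ± 0.22). Both drugs lay above DMSO. nfe2l2, the factor that switches on antioxidant genes, was at 46.9, 45.2 and 47.7 CPM against 92.9, 70.2 and 84.4 CPM (-0.85 ± 0.12). nqo1, among its targets, had a difference of -0.09, and no list of nfe2l2 targets was examined. The transcription factor cebpd (-1.86 ± 0.31) and the immediate early gene fosl2 (-1.53 ± 0.23) were higher with cyclopamine and, with estradiol, fosl2 lay below every DMSO library.

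Pituitary hormones set the drugs apart in 1 gene. gh1, growth hormone, had 0 reads in each of the 3 estradiol libraries and 98, 71 and 26 reads in the cyclopamine libraries, against 1025, 865 and 1204 reads with DMSO. At this depth, with a floor of 3 reads over the group, the estradiol level of gh1 lay at least 67.2-fold lower (edgeR adjusted p = 0.0242). Cyclopamine libraries, at 3.88, 3.49 and 1.23 CPM, were themselves below the DMSO libraries at 52.5, 49.4 and 60.4 CPM. The call was not made without estradiol replicate 1, cyclopamine replicate 1 or cyclopamine replicate 2.

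The other 11 measured pituitary genes were not called. pomc, the corticotropin precursor, was at 17.9, 11.2 and 5.22 CPM with estradiol and 26.4, 17.8 and 11.8 CPM with cyclopamine (log2 -0.73 ± 0.45, adjusted p = 0.466), and the DMSO libraries were above both. Prolactin genes were too low to test: prl.1 had 1 read with estradiol and 10 with cyclopamine, against 323 with DMSO. tshb, the thyrotropin subunit, had 39 reads with estradiol and 5 with cyclopamine, against 211 with DMSO, and was not called.

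Genes of an estrogen response list did not separate the drugs by this test. Of 25 genes named, 14 were measured, none was called, and the median difference was 0.04. The measured members include receptor genes, namely gper1, the androgen receptor gene ar, esrra, esrrb and esrrg, but not the estrogen receptor genes esr1 and esr2. Among the members not found by symbol were esr1, esr2, pgr, tff1, tff3 and vtgb1, so the list covers the response only in part. vtga2, a vitellogenin, was at 1.80, 2.24 and 1.22 CPM with estradiol and 2.33, 1.53 and 1.52 CPM with cyclopamine. greb1 was at 25.7, 32.2 and 45.3 CPM against 34.4, 27.8 and 28 CPM, and cyp19a1, aromatase, at 6.81, 4.16 and 3.24 CPM against 7.36, 10.8 and 5.03 CPM. The groups overlapped in each of them.

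Outside these groups, vil1, an actin bundler of microvilli, was 8.93-fold higher with estradiol, at 3.89, 3.11 and 3.85 CPM against 0.317, 0.492 and 0.380 CPM (log2 3.16 ± 0.31, adjusted p = 0.0167), and was called in all fits that left out 1 library except the one without estradiol replicate 1. The largest called difference on the cyclopamine side with a level above the minimum for naming was satpa, at 1.56, 2.27 and 1.52 CPM against 11.2, 15.7 and 48.5 CPM (-3.83 ± 0.62). The highest library, cyclopamine replicate 3, stood apart from the other cyclopamine libraries. The lectin receptor cd302 (-2.57 ± 0.31) and ocm4.1, a calcium-binding protein of the parvalbumin family (-2.5 ± 0.27), were called with less spread. The muscle list named the parvalbumin gene pvalb, which was not found by symbol. Whether ocm4.1 belongs with the muscle genes was not tested.

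Placed beside the solvent controls, the called genes fell into few patterns. Of the 142 genes higher with estradiol, 136 (95.8%, against 30.1% of all genes) had all cyclopamine libraries below all DMSO libraries. In 97 (68.3%, against 13.8%) the estradiol libraries were all above DMSO, and 93 (65.5%, against 1.36%) had both. Replication and mitosis genes such as cdc6, rrm2.2 and cenpe were of this kind, whereas gli1 and dbx1 were below DMSO in every cyclopamine library and above it in estradiol replicate 3 but not in every estradiol library. Of the 147 genes higher with cyclopamine, 144 (98%, against 19%) had all cyclopamine libraries above DMSO. In 86 of them (58.5%, against 8.23% of all genes) estradiol was above DMSO as well, and in 51 (34.7%, against 10.6%) only cyclopamine was apart from DMSO. In 7 (4.76%, against 0.173%) cyclopamine lay above DMSO and estradiol below. ctsb and ctsc lay above DMSO with both drugs, whereas mrc1 and sqstm1 did not with estradiol. The called genes were picked for a difference between these same drug libraries, which favours such positions, so the shares of all genes are not a like comparison. By definition, all 221 genes with estradiol above and cyclopamine below DMSO are among the 2476 with estradiol on top. Likewise the 28 with the reverse are among the 1514 with cyclopamine on top. Both drugs also share these controls, so the positions are a description.

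The genes that separate the drugs were also followed through development in untreated brains, where most genes changed. Between stage 40 and stage 47, 40.3% of the genes tested in both tables rose and 40.8% fell. Of the 142 genes higher with estradiol, 133 fell, 4 rose and 5 were not called, with a median log2 change of -3.44 against -0.01 for all genes. All 38 replication genes and all 38 mitosis genes fell, with medians of -2.06 and -4.05. krt61, vstm4, pltp and hhip were the 4 that rose. gli1 fell by 0.60 on the log2 scale, and the value of ptch1 was 0.12, which did not pass the test.

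The cyclopamine side was more mixed. Of the 137 genes measured in the time course 82 rose, 24 fell and 31 were not called, with a median of 0.66. gpnmb rose by 4.5, grn, the progranulin gene, by 1.97 and hexb by 0.64, while the scavenger receptors mrc1, stab2 and havcr1 fell by 2.57, 1.77 and 1.59. Of the 36 lysosomal genes 23 rose and 7 fell. The muscle genes ckm and mylpf were not called between the stages.

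**Figure D5:**
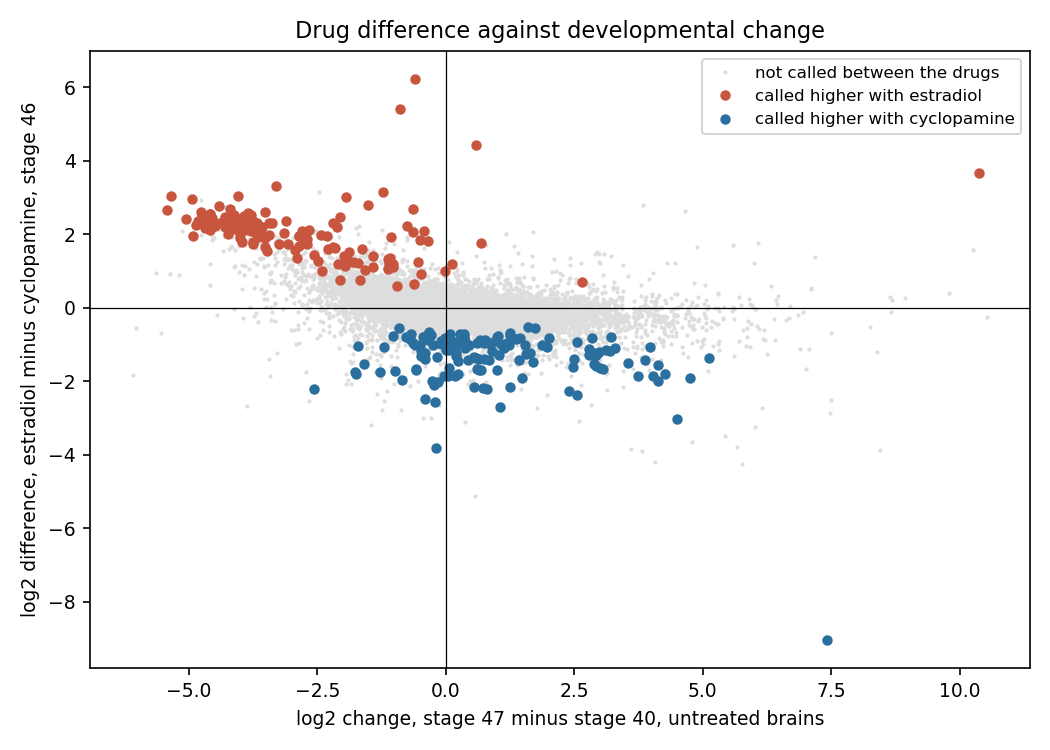
Each point is 1 of 15599 genes measured in both tables, with its log2 change from stage 40 to stage 47 in untreated brains on the x axis and its log2 difference, estradiol minus cyclopamine, on the y axis; called genes are coloured by direction. Genes higher with estradiol lie mostly to the left, with a median of -3.44, and genes higher with cyclopamine spread around 0.66.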

How the data were processed

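Whole-brain RNA was extracted with TRIzol, selected for polyA and made into stranded low-yield libraries, per the labels' protocols. Reads were handled with STAR 2.7.3, per the submitters' processing notes. The sources used here name no genome build and no counting tool. The deposited count tables hold whole-number read counts per gene, for 16212 genes in the drug table. A deposited table of normalized log2 values was used only in 1 alternative. Of the drug table's genes 19.6% have no symbol, as do 37 of the called genes.

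Counts of the 6 drug libraries were normalized by TMM, filtered with filterByExpr, which removed 13 genes, and tested with edgeR 4.0.16 (robust quasi-likelihood test, R 4.3.3), with Benjamini-Hochberg adjustment over all genes and a threshold of 0.05. Stages 47 and 40 were compared by the same test on the time course counts, but with the spread estimated from all 18 time course libraries. The procedure was run on simulated data in which no library was made to lie apart from its group. That run cannot show how the test behaves with outlying libraries such as those seen here. Levels are TMM-normalized CPM. Each error after ± was computed as the absolute log2 difference divided by the square root of the test's F statistic. It is thus an approximate standard error and not a separate estimate, least certain for genes with few reads. Intervals and floors of 3 counts cover counting error only.

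Groups came from the labelled treatment, stage and title. Named genes were the 12 largest differences and the 10 lowest p-values in each direction, among called genes with a symbol, a mean of at least 1 log2 CPM and groups that do not overlap, up to 6 called members per list, and all Hedgehog, pituitary and estrogen response genes and the highest markers of other cell types. Every other gene the text names was chosen after its values were seen, among them birc5l, cd63, cdc45, cebpd, chaf1a, ctns, ctsa, ctsc, dbx2, e2f8, fnip1, fnip2, fst, gins4, gm2a, gnpda1, grn, gusb, hells, helt, hes5.3, hes5.4, hes5.5, incenp, krt61, lgmn, lig1, man2b1, mcm4, mcm6.2, mki67, naglu, nfe2l2, ntn3, optn, orc1, pltp, psap, renbp, rragc, slc17a5, sqstm1 and vstm4 of the called genes. The comparison, its members and the lists were chosen with earlier results of these data known, and 7 of the 52 lists after the values were seen. Alternatives were other normalizations and filters, DMSO libraries in the fit, the replicate block, each library left out, DESeq2 1.42.0, limma 3.58.1 on the deposited log2 values, and, added after seeing the data, limma-voom and the test without its robust option. Promoter motifs were not searched, since no sequence was used here. Results of some genes counted in the lists are not reported here.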

Additional observations from a re-analysis of the deposited data

How the results depend on the processing

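Against 289 calls, 142 higher with estradiol and 147 higher with cyclopamine, the DMSO libraries in the fit gave 1097 (675 and 422), DESeq2 gave 1171 (575 and 596) and limma-voom gave 106 (23 and 83); the cause was not tested. Leaving out each library gave 2 to 341 calls, 2 to 219 higher with estradiol and 0 to 154 higher with cyclopamine. Same-numbered libraries correlated at -0.315, 0.0849 and -0.287 in their deviations from the group means, and differently numbered ones at -0.386 to 0.515. With 3 libraries a drug, these values cannot show whether the replicate numbers pair the libraries. With the replicate block 377 genes were called, 211 higher with estradiol and 166 with cyclopamine, including 133 of the 142 and 124 of the 147. Other normalizations and filters, limma on the deposited values and the test without its robust option gave 241 to 389 calls. With DMSO libraries in the fit, 30 replication, 38 mitosis, 23 lysosomal, 7 cholesterol and 7 muscle genes were called. With limma-voom the counts were 3, 0, 8, 1 and 1, and without the robust option 2 muscle genes were called. Leaving out 1 library gave 2 to 4 Hedgehog targets, 0 to 22 replication, 0 to 32 mitosis, 0 to 11 lysosomal, 0 to 1 cholesterol and 0 to 4 muscle genes. All 289 genes kept their direction in every fit that tested them, but these fits reuse libraries in which the groups did not overlap. Between stages 40 and 47, leaving out 1 library gave 6194 to 6375 genes that rose and 6218 to 6419 that fell. With 3 libraries a drug, and estradiol replicate 3 and cyclopamine replicate 1 apart from their groups, genes near the threshold cannot be read as separate from those just past it.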
